A study of Mus musculus with 4 samples.

Results

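The genes described here are the cell cycle and DNA replication machinery as represented on one mouse array: the origin recognition complex, the MCM helicase, replicative polymerases with their clamp and clamp loader, nucleotide-supplying enzymes, cyclins, cyclin-dependent kinases, E2F transcription factors and the kinases and checkpoint proteins of mitosis. Members were chosen by gene symbol alone, with no use of measured values. The symbols matched 122 probe sets of 89 genes, out of 8251 genes that the array measured through a probe set with a single symbol, and the probe set of highest mean signal stood for each gene. Because symbols were matched, 13 genes whose names resemble cell cycle genes but which for the most part work elsewhere were included and are described last.

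A total of 4 cultures were each measured once on an Affymetrix MG_U74Av2 array. The control was 1 culture of R1 mouse embryonic stem (ES) cells, pluripotent cells kept undifferentiated on gelatin with LIF. The other 3 were extraembryonic endoderm (XEN) cells, lines of the lineage that forms the yolk sac endoderm: IM8A1-I with IM8A1-II, both from line IM8A1 (PO strain) at passage 27, and XEN1-3 (ICR strain) at passage 18. XEN values below are given in that order. IM8A1-I and XEN1-3 were kept on gelatin in medium that the labels call 70% EMFI-CM, and IM8A1-II had spent 4 days on culture plastic, in RPMI 1640 containing 20% FBS. No genetic change or added agent is named for any culture beyond these. The XEN group therefore stands for 2 lines, and its p-values measure the spread between 3 cultures, while the single ES culture was assumed to vary alike.

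All 8 pluripotency markers were above the background limit of 27.3 units in ES and none was in any XEN culture, with summed levels of 20959 units against 69.9 to 76.4 units. All 8 endoderm markers were above the limit in every XEN culture, against 3 of 8 in ES. Fibroblast and feeder cell markers summed to 501 units in ES and 544 to 679 units in XEN, with 5 of 10 under the limit on every array. Trophoblast markers summed to 974 units in ES, of which Tfap2c gave 767, and to 114 to 139 in XEN, where Cdx2 and Elf5 were under the limit on every array. Germ layer markers summed to 139 units in ES and 37.1 to 46.5 in XEN. The part of these other cell types in the results was not tested. The ES array came from another chip lot and was run on another day than the 3 XEN arrays, so lot and day cannot be told apart from the cell type. The run record of XEN1-3 carries a message that fluid was not detected.

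DNA replication is licensed in G1, when the origin recognition complex and Cdc6 load the MCM helicase onto origins. In S phase the polymerase alpha-primase complex starts each strand, and the clamp loader Rfc places the sliding clamp Pcna for the main polymerases delta and epsilon. Cyclin E with Cdk2 drives entry into S phase, E2F factors switch on many replication genes, and the anaphase-promoting complex with its activator Cdc20 ends mitosis. Mouse ES cells are known for fast division with a short G1 phase and high cyclin E activity.

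The 250 bases before the RefSeq start site were searched for 3 elements known from cell cycle promoters. These were the E2F site (TTTCGCG, or instead TTTGGCG, or else TTTCCCG, or finally TTTGCCG), the cell cycle homology region or CHR (TTTGAA) and the CCAAT box (CCAAT), on both strands. RefSeq promoters on GRCm38.p6 were found for 77 of the 89 genes, 88 promoters in all. The promoters of 4 members that passed the test in XEN against ES are shown 5′ to 3′, with any of the 3 elements in capitals. They were picked to show genes with each element, and 1 with none.

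Cdc20, chr4:118437344-118437593, minus strand: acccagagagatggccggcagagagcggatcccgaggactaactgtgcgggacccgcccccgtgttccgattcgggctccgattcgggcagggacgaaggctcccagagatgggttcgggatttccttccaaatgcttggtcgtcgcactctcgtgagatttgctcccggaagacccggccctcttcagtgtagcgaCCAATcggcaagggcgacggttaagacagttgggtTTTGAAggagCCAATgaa

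Pola1, chrX:93632156-93632405, minus strand: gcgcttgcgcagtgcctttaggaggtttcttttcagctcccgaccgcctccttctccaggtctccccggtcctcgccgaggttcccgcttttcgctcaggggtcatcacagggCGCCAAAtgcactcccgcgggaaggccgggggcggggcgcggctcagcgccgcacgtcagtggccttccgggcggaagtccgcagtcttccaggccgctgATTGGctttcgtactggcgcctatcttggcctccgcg

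E2f8, chr7:48881597-48881846, minus strand: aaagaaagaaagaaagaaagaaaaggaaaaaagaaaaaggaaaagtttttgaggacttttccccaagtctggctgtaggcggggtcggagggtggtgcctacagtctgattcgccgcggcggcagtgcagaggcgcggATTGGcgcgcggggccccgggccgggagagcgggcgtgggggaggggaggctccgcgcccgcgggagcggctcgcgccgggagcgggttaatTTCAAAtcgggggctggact

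Ccne1, chr7:38107491-38107740, minus strand: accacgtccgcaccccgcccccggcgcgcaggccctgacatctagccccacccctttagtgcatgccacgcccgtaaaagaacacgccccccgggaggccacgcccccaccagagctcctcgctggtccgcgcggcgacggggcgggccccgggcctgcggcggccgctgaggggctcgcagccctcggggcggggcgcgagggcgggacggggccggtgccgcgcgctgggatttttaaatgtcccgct

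Cdc20 carried CCAAT boxes starting 53 and 8 bases before the start and a CHR starting 18 bases before it. Pola1 held an E2F site starting 137 bases and a CCAAT box starting 37 bases before the start, both on the other strand. E2f8 had a CCAAT box starting 112 and a CHR starting 20 bases before the start, again on the other strand, and the Ccne1 window held none of these letters. No 2 different elements overlapped in these windows. Among the other members that passed, Cdc5l and Cdk2ap1 held a CCAAT box alone, while Rfc5, Ccnb1ip1 and Cdk14 held none of the 3.

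Over all members, the E2F letters were in 17 of 88 promoters (19.3%), against 5.51% of the 32851 promoters in the table and 8.33% of the 8408 promoters of genes on the array. CCAAT was in 48 (54.5%), against 33.8% and 34.6%. CHR was in 14 (15.9%), against 16.0% and 11.3%. The E2F letters were found for 16 genes, among them the MCM genes Mcm5, Mcm6 and Mcm7, Orc1, Cdc6, Cdc25a, Cdk1, Cdk2 and Rpa1. The CHR genes included the mitotic genes Ccnb2, Cdk1, Top2a and Mki67 and the helicase genes Mcm2 and Cdc45. These shares describe letters in a window and were not tested, and 12 of the 17 E2F promoters also held CCAAT.

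XEN cells were compared with ES cells to see how much of this machinery differs between an extraembryonic and a pluripotent line. Most replication and division genes stood somewhat lower in XEN than in ES, by amounts that were mostly under 2-fold. Cyclin E1 (Ccne1), Cdc20, the polymerase alpha catalytic subunit gene Pola1, the clamp loader gene Rfc5 and the E2F repressor gene E2f8 fell, and the kinase gene Cdk14 rose. Counting the genes named alike as well, 8 of 85 tested members fell and 1 rose in limma's test (Benjamini-Hochberg adjusted p under 0.05), while 76 did not pass. Over all 8582 tested probe sets 10.6% passed (5.05% fell and 5.58% rose). Of the 8 falls, 3 were among the 12 tested genes named alike, which for the most part work elsewhere. With these counted, the members' 9.41% that fell lies above the 5.05% background by a few genes. That small excess thus rests in part on the genes named alike. The members' 1.18% that rose lies below the background of 5.58%. The count that fell was 1 with IM8A1-I left out, 2 with IM8A1-II left out and 13 with XEN1-3 left out, while 2.11%, 2.46% and 8.27% of all tested probe sets fell. Both IM8A1 cultures are one line, so every value given without XEN1-3 describes that line and not XEN cells as a group. With each line counted once 3 of 85 members fell and 1 rose, beside 3.72% and 4.05% of all tested probe sets. The adjusted p was then 0.0799 for Ccne1, 0.0585 for Cdc20, 0.0718 for Cdk2ap1, 0.0532 for E2f8 and 0.0594 for Pola1. In bulk RNA a smaller share of dividing cells and less RNA per cell cannot be told apart.

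Lower levels were more common than calls. At an unadjusted p under 0.05, 22 of the 85 tested members were lower and 3 higher, beside 14.5% and 15.1% of all tested probe sets. For 50 of the 85 tested members (58.8%) all 3 XEN arrays lay below the ES array, against 34.0% of all tested probe sets. For 14 (16.5%) all 3 lay above it, against 39.0%. The median log2 change (signal plus 10.5 units, XEN minus ES) was -0.36 over the members and 0.05 over all tested probe sets. Taken singly against the same ES array, the XEN cultures had member medians of -0.43, -0.42 and -0.27, where the medians over all tested probe sets were 0.04, 0.06 and 0.07. A change of at least 0.5 downward was seen for 33 members (38.8%, against 25.6% of all tested probe sets) and upward for 7 (8.24% against 28.0%). Of the 89 genes, 4 lay under the limit on every array and were not tested. Those tested include 3 that reached the limit in one group only, Ccnb1ip1 in ES and Cdk14 and E2f3 in XEN. Without that filter the median over the 89 was -0.34. These summaries have no test of their own, and all rest on the same ES array.

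**Figure D1:**
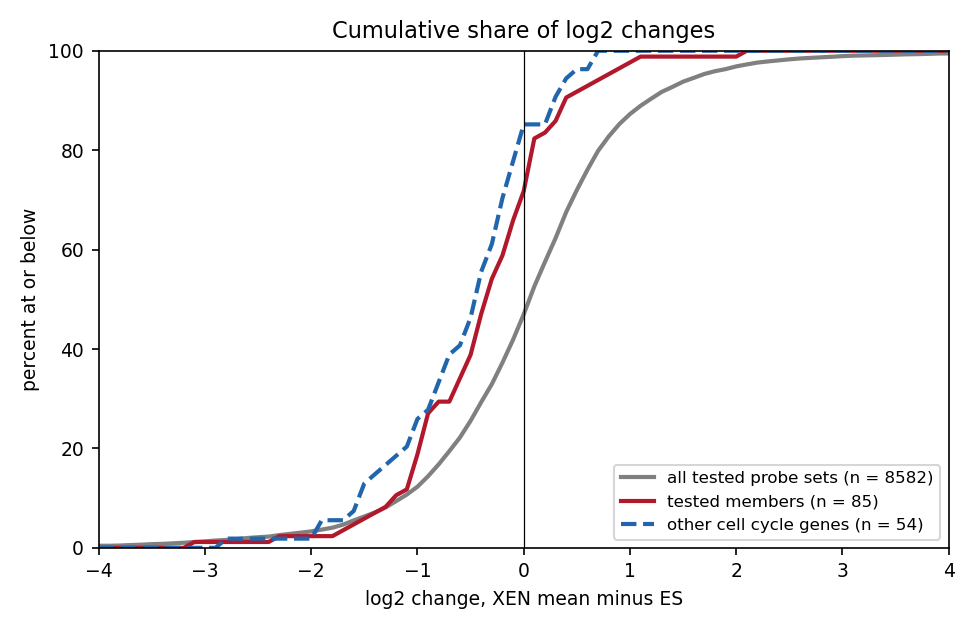
Cumulative share (percent) of log2 changes, XEN mean minus ES, for 85 tested members (red), 54 other tested cell cycle genes (blue, dashed) and 8582 tested probe sets (grey). Both gene sets lie to the left of the grey line over the middle of the range: 38.8% of the members lay at or below -0.5, against 25.6% of all tested probe sets.

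Origin licensing and the helicase came first in the order of replication. Of 15 genes 14 were tested, 0 passed limma's test in either direction, and 4 lay lower at an unadjusted p under 0.05, beside 14.5% of all tested probe sets. The median log2 change was -0.43. All 3 XEN arrays lay below ES for 9 (64.3%) and above ES for 2 (14.3%), against 34.0% and 39.0% of all tested probe sets. Orc1, the largest subunit of the origin recognition complex, stood at 211 units in ES and 108, 105 and 102 in XEN. The XEN values were nearly equal and about 1.91-fold under ES on the offset scale, with an adjusted p of 0.0772.

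Mcm2 to Mcm7 form the ring of the replicative helicase. Mcm5 stood at 2121 units in ES and 1042, 1152 and 1188 in XEN (log2 change -0.91 ± 0.25 SE, adjusted p = 0.0762), and Mcm7 at 1028 against 584, 534 and 443 (-0.98 ± 0.28, adjusted p = 0.0845). For both genes the XEN arrays lay well apart from ES without passing. Mcm3 stood at 1195 units in ES and 951, 871 and 707 in XEN. Mcm2 gave 952 in ES and 717, 594 and 832 in XEN, also below ES on each array. Mcm4 did not separate the groups, at 1012 units in ES and 953, 1023 and 830.3 in XEN. The Mcm6 probe set was under the limit on all 4 arrays, at 5.60 to 7.80 units, and so gives no value for this subunit.

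The other licensing genes did not move as one. Cdc6, which loads the helicase, was higher on every XEN array, at 339 units in ES and 721, 499 and 418 in XEN (log2 change 0.64 ± 0.37, adjusted p = 0.304). Orc6 was also higher on each XEN array, at 770.3 against 885, 933 and 877. Cdc45, a partner of the helicase at the fork, overlapped, at 346 in ES and 459, 408 and 259.7 in XEN. Orc2 overlapped as well, at 72.5 against 96.1, 50.7 and 77.9. Orc4, Orc5 and the origin-firing kinase gene Cdc7 were below ES on each XEN array, with log2 changes of -0.43, -0.90 and -0.34 that did not pass. Mcm3ap, counted here by its symbol, encodes a protein of mRNA export and stood at 213 in ES and 94.7, 118 and 111 in XEN (adjusted p = 0.0914).

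The replication fork genes had a median log2 change of -0.59. Among 19 genes, all tested, 2 fell (10.5%), 0 rose and 17 did not pass, while 5.05% of all tested probe sets fell and 5.58% rose. All 3 XEN arrays lay below ES for 13 (68.4%), against 34.0% of all tested probe sets. Pola1, the catalytic subunit of the polymerase that starts each new strand, stood at 389.6 units in ES and 161, 132 and 135 in XEN. Every XEN array was far below ES, and Pola1 fell by 1.39 ± 0.28 on the log2 scale, or 2.62-fold (adjusted p = 0.0348). Its partner subunit Pola2 overlapped between the groups, at 293 in ES and 279, 234 and 309.8 in XEN by its brighter probe set. A second Pola2 probe set was below ES on each XEN array, at 104 against 36.8, 34.7 and 66.5 (-1.07 ± 0.40, adjusted p = 0.146). Leaving out IM8A1-I or IM8A1-II ended the Pola1 call (adjusted p = 0.0801 and 0.0945), and 10 of 14 alternatives kept the call.

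Rfc5, a small subunit of the clamp loader, stood at 1143 units in ES and 424, 284.5 and 361 in XEN. It fell by 1.67 ± 0.32 on the log2 scale, or 3.18-fold (adjusted p = 0.0314). A second, much dimmer Rfc5 probe set, above the limit on every array, did not show this, at 37.6 units in ES and 33.0, 46.9 and 44.9 in XEN. With both averaged and refitted the Rfc5 fold was 1.72 (adjusted p = 0.110), so the call depends on the probe set. Without IM8A1-I the adjusted p was 0.0628, without IM8A1-II it was 0.0663, and 10 of 14 alternatives kept the call. The other 4 subunits lay in the same direction on each XEN array without passing: Rfc1 stood at 541 in ES and 321, 307 and 266 in XEN (adjusted p = 0.106). Rfc2, Rfc3 and Rfc4 had log2 changes of -0.62, -0.31 and -0.64.

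Pcna, the clamp that Rfc loads, stood at 1559.6 units in ES and 1076, 1057 and 887 in XEN, below ES on each array (log2 change -0.63 ± 0.27, adjusted p = 0.182). Rpa1, the large subunit of the single-strand binding protein, stood at 994 in ES and 269.7, 539.8 and 276 in XEN. The IM8A1-II value was the one apart, the log2 change was -1.51 ± 0.45 (adjusted p = 0.0902), and without that array it was -1.83 (adjusted p = 0.0457). Rpa2 was little below ES on each array, at 107 against 102, 84.2 and 106, and Rpa3 overlapped, at 198 against 208, 191 and 214. The 3 subunits of this complex thus showed unequal differences on these arrays.

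Among the polymerase delta genes the catalytic subunit gene Pold1 stood at 475 units in ES and 251, 188 and 253 in XEN (log2 change -1.02 ± 0.30, adjusted p = 0.0860). A dim second probe set of Pold1 lay the other way, with a log2 change of 0.73 that did not pass. Pold2 stood at 565 in ES and 356, 185 and 333 in XEN (adjusted p = 0.189). Pold3 overlapped and Pold4 lay above ES on each XEN array, with log2 changes of -0.02 and 0.39. For polymerase epsilon, Pole2, Pole3 and Pole4 had changes of -0.21, 0.55 and -0.15, none past the threshold. Top2a, the topoisomerase that untangles replicated chromosomes, stood at 849 in ES and 537, 509 and 648 in XEN, lower on each array (-0.59 ± 0.28, adjusted p = 0.223).

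Of the 4 genes of deoxynucleotide supply none passed limma's test, with 2 lower and 0 higher at an unadjusted p under 0.05, beside 14.5% and 15.1% of all tested probe sets. Both subunits of ribonucleotide reductase were below ES on every XEN array. The large subunit gene Rrm1 stood at 789 units in ES and 317, 376 and 495 in XEN (adjusted p = 0.111, and 0.0415 without XEN1-3). The small subunit gene Rrm2 stood at 909 against 482, 607 and 587 (-0.70 ± 0.28, adjusted p = 0.162). Tk1, the thymidine salvage kinase, spanned the ES value of 306, at 183, 275 and 389.8. Rrm2b, the alternative small subunit induced by p53, was dim, at 29.9 in ES and 60.1, 48.3 and 17.3 in XEN.

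The cyclins split. Ccne1, which with Cdk2 drives S phase entry, stood at 525 units in ES and 227, 222 and 212 in XEN. The XEN cultures were close together (220.3 ± 7.32, SD, n = 3), and Ccne1 fell by 1.22 ± 0.26 on the log2 scale, or 2.32-fold (adjusted p = 0.0414). The adjusted p rose to 0.110 without IM8A1-I and 0.104 without IM8A1-II. The probe set of its relative Ccne2 was under the limit on all arrays, at 10.5 to 21.3 units, and so was that of Ccna1, a mostly germline cyclin, at 0.900 to 5.20 units.

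Ccna2, the cyclin of S and G2 phase, was at one level throughout, 748 units in ES and 855, 712 and 752 in XEN (log2 change 0.04 ± 0.26). Ccnb2, a mitotic cyclin, divided the XEN lines: 1573 in ES, 498 and 625 in the IM8A1 cultures and 1436 in XEN1-3. The change over all 3 did not pass (-1.03 ± 0.59, adjusted p = 0.303), while without XEN1-3 it was -1.48 (adjusted p = 0.0240), a value of the IM8A1 line and not of XEN cells as a group. Ccng1, a p53 target, was about 2-fold higher at 425, 478 and 423 against 215 in ES (adjusted p = 0.0668). Ccng2, known from cells leaving the cycle, was above ES on each XEN array, at 206 in ES and 235, 357 and 239.8 (0.39 ± 0.34, adjusted p = 0.491).

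Among 11 cyclin-dependent kinase genes, all tested, 1 rose, 0 fell and 10 did not pass. Over all tested probe sets 5.58% rose and 5.05% fell. The kinases of the core cycle differed little. Cdk1, the mitotic kinase, stood at 1245 units in ES and 998, 1018 and 1165 in XEN (log2 change -0.23 ± 0.26, adjusted p = 0.588). Cdk2, the partner of cyclin E, overlapped at 213 against 228, 183 and 239, a change of 0.01 ± 0.29. Cdk4, the partner of D-type cyclins, was lower on every XEN array, at 1427 in ES and 952, 891 and 1124 (-0.53 ± 0.27, adjusted p = 0.251).

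The gene that rose was Cdk14, a kinase that acts with cyclin Y and is known from Wnt signalling. It was under the limit in ES at 16.7 units and stood at 74.9, 139.9 and 93.2 in XEN, at least 3.63-fold higher (adjusted p = 0.0330). A second Cdk14 probe set stayed near the limit on all arrays, at 23.2 in ES and 18.8, 17.9 and 27.7 in XEN, and with both averaged and refitted Cdk14 did not pass (1.95-fold, adjusted p = 0.115). Leaving out IM8A1-I or IM8A1-II ended the call (adjusted p = 0.0533 and 0.0627), and 8 of 14 alternatives kept it. Cdk9, which releases paused RNA polymerase II, was lower on every XEN array at 402 in ES and 230.3, 234 and 182 (-0.88 ± 0.29, adjusted p = 0.110). Cdk18 was also lower on each array, at 127.5 against 37.5, 64.3 and 78.1 (adjusted p = 0.169). Cdk5, Cdk7, Cdk8, Cdk11b and Cdk16 had log2 changes of -0.24, 0.49, 0.06, -0.40 and 0.15.

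E2F factors gave 1 fall and 3 genes that did not pass, where 5.05% of all tested probe sets fell. E2f8, an atypical member that represses E2F targets, stood at 269.5 units in ES and 60.1, 60.6 and 22.0 in XEN, of which the last is under the limit. E2f8 fell by 2.36 ± 0.52 on the log2 scale, or 5.12-fold (adjusted p = 0.0445). A second E2f8 probe set was lower on each array too, at 143 in ES and 57.0, 62.4 and 58.2 in XEN (-1.14 ± 0.27, adjusted p = 0.0547), and with both averaged and refitted the fold was 3.36 (adjusted p = 0.0343). The adjusted p was 0.0736 when IM8A1-I was left out and 0.0676 when IM8A1-II was, and 7 of 14 alternatives kept it.

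The activator genes E2f1 and E2f3 were dim. E2f1 stood at 64.6 in ES and 57.4, 81.2 and 71.4 in XEN by one probe set and at 76.5 against 24.6, 41.1 and 37.6 by another, which disagree (log2 changes of 0.09 and -0.97, neither past the threshold). E2f3 was under the limit in ES at 22.9 and at 54.0, 50.8 and 37.1 in XEN, at least 1.71-fold higher (adjusted p = 0.191). E2f5, which acts with pocket proteins, overlapped, at 157 against 153, 131 and 191.

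**Figure D2:**
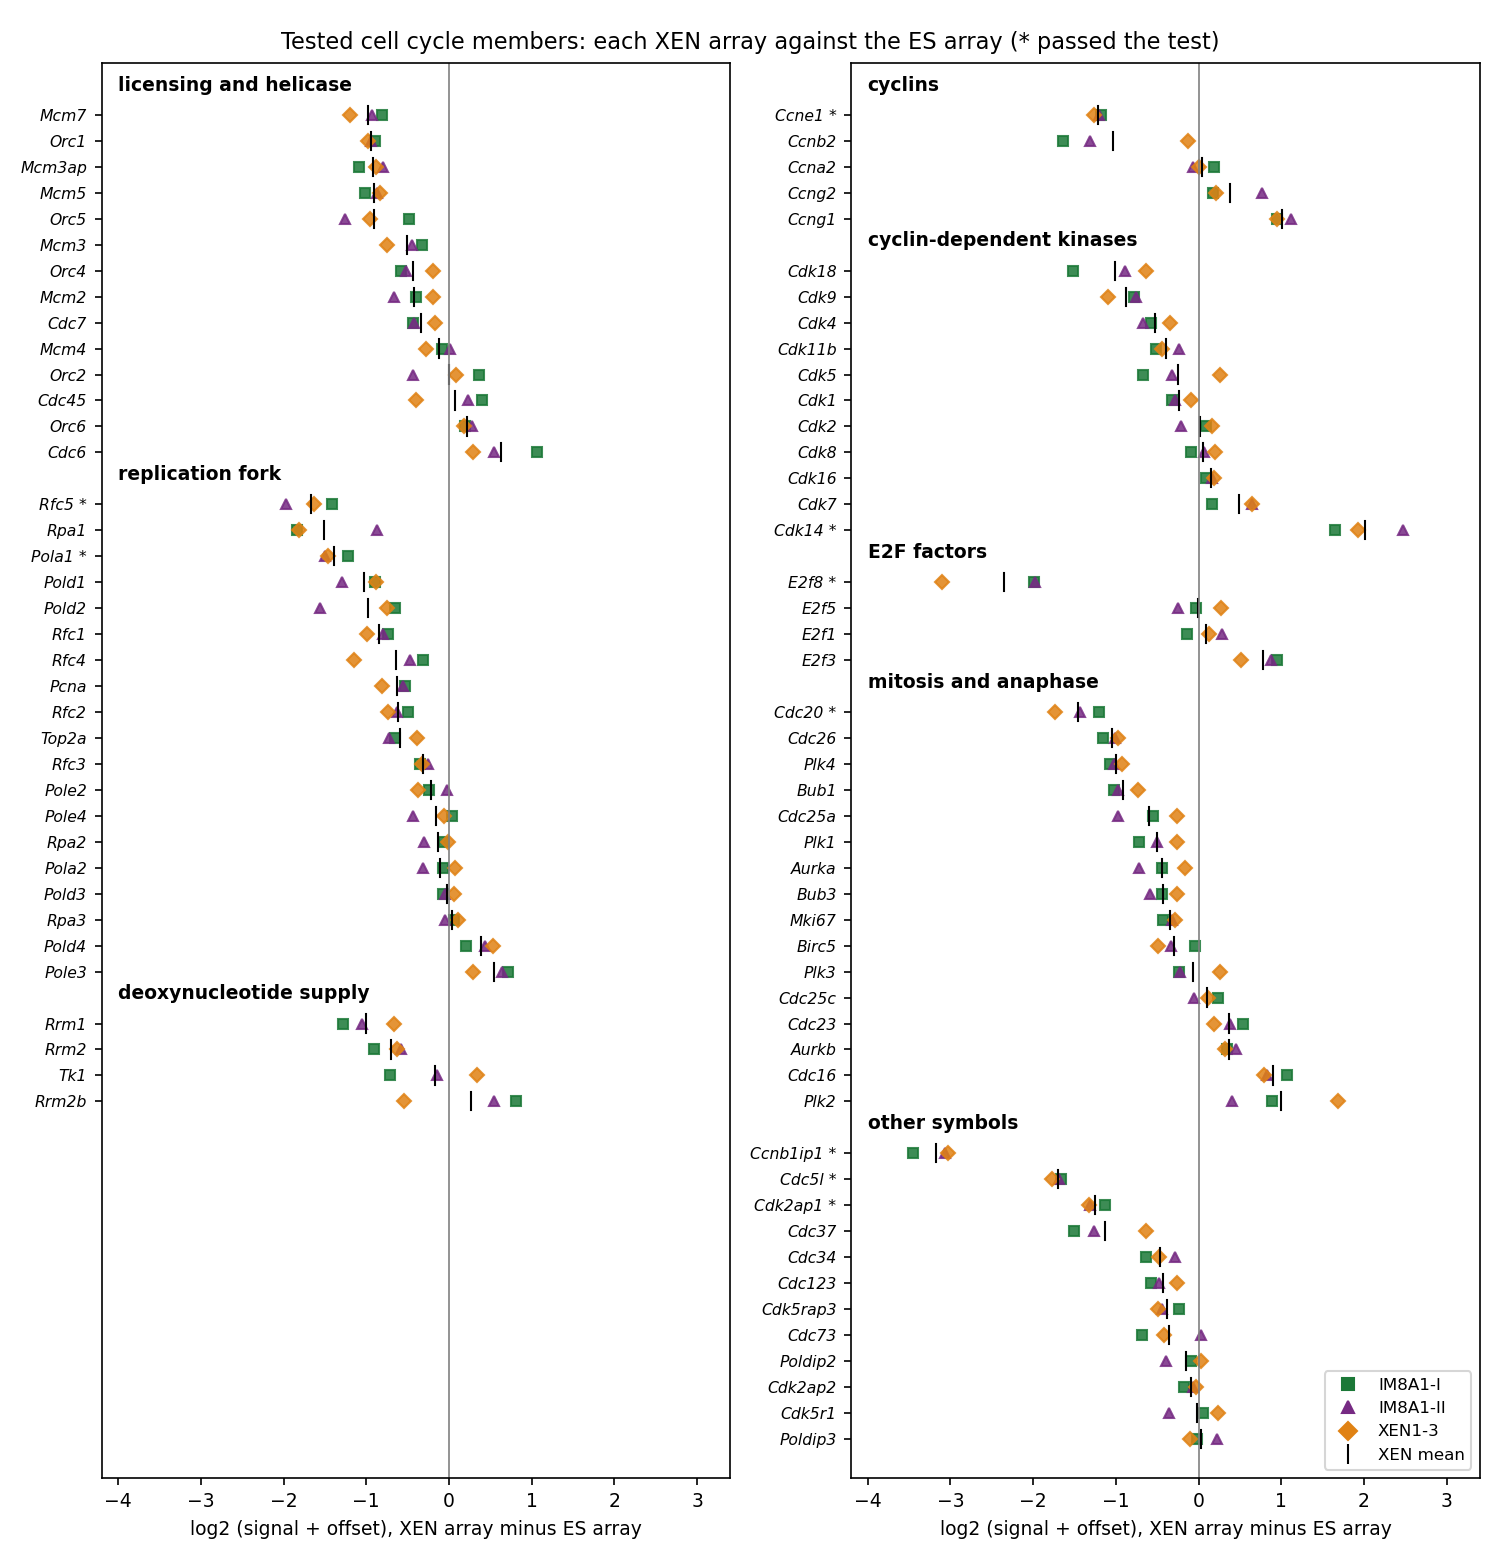
Log2 difference of each XEN array from the ES array (signal plus offset, horizontal axis) for the 85 tested members by role, with IM8A1-I as squares, IM8A1-II as triangles, XEN1-3 as diamonds and a bar at the XEN mean. Members that passed limma's test have an asterisk; most rows of the licensing, fork and mitosis groups lie left of 0, while Cdk14 lies right of it at 2.02.

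Of 16 genes of mitosis and anaphase, all tested, 1 fell, 0 rose and 15 did not pass, with a median log2 change of -0.39. By comparison, 5.05% of all tested probe sets fell and 5.58% rose. All 3 XEN arrays lay below ES for 10 and above it for 4, against 34.0% and 39.0% of all tested probe sets. Cdc20, which activates the anaphase-promoting complex, stood at 1858 units in ES and 802, 684 and 549.6 in XEN. All 3 lay far below ES, and Cdc20 fell by 1.46 ± 0.31 on the log2 scale, or 2.74-fold (adjusted p = 0.0410). Leaving out IM8A1-I gave 0.0773 and leaving out IM8A1-II 0.0861, and 8 of 14 alternatives kept the call.

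Subunits of the same complex went different ways. Cdc26 was lower on each XEN array at 313 units in ES and 134.5, 151 and 154 (-1.05 ± 0.27, adjusted p = 0.0624, and 0.0481 without XEN1-3). Cdc16 was higher on each at 345 against 735, 620.0 and 607 (0.90 ± 0.27, adjusted p = 0.0911), and so was Cdc23, at 115 against 172, 153.5 and 132.5. None of the 3 passed in the fit to all 4 arrays.

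The mitotic kinases and checkpoint genes mostly lay below ES. Plk4, the kinase of centriole duplication, stood at 586 units in ES and 274, 284 and 304 in XEN (adjusted p = 0.0650). It was 0.0498 without XEN1-3 and 0.0454 with values raised to the limit. Bub1, a kinase of the spindle checkpoint, stood at 413 against 197, 205 and 245 (-0.91 ± 0.28, adjusted p = 0.0931), and its partner Bub3 at 1096.5 against 802, 724 and 909.9. A dim second Bub1 probe set overlapped, at 39.0 against 32.3, 33.7 and 44.5. Plk1, which drives mitotic entry, was lower on each XEN array at 598 against 358, 418 and 496, and Aurka, the kinase of spindle poles, at 461 against 338, 276 and 411. Another Plk1 probe set was lower on each as well, at 342.0 against 271.9, 187.7 and 233.7. A further Plk1 probe set overlapped, at 238.6 against 197.5, 193.4 and 243.7. Aurkb, the kinase of the chromosomal passenger complex, was higher on each at 211 against 272, 292.5 and 265, and its partner Birc5 (survivin) was lower on each at 491 against 477, 386 and 345. None of these passed.

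The G1/S phosphatase gene Cdc25a stood at 445 units in ES and 301, 222 and 369 in XEN (-0.59 ± 0.35, adjusted p = 0.314), and Cdc25c overlapped with a log2 change of 0.10. Mki67, the source of the Ki-67 proliferation marker, differed by little, at 482 against 356, 382 and 394 (-0.34 ± 0.26, adjusted p = 0.417). Its dim second probe set lay the other way at 0.81. Plk2, a kinase induced by stress and serum, was higher on each XEN array but uneven, at 383 in ES and 717, 512 and 1252 in XEN (0.99 ± 0.50, adjusted p = 0.249). Plk3 overlapped, at 1088 against 922, 929 and 1309.

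The 13 genes taken in by their names held 3 of the 8 falls, with 12 tested, 0 that rose and 9 that did not pass. Over all tested probe sets 5.05% fell and 5.58% rose. Ccnb1ip1, a ubiquitin ligase known from meiotic crossing-over, stood at 198 units in ES and was under the limit in XEN at 8.60, 14.5 and 15.1, at least 7.25-fold lower (adjusted p = 0.00880). It was the only member called without IM8A1-I (adjusted p = 0.0261), and the call held in all 14 alternatives. Cdc5l, a splicing complex protein, fell by 1.70 ± 0.26 or 3.26-fold, from 785 to 241, 237 and 223 (adjusted p = 0.0178), against 0.0611 without IM8A1-I and 0.0545 without IM8A1-II. A second Cdc5l probe set was also lower on each array, with a log2 change of -0.90 that did not pass.

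Cdk2ap1, which binds Cdk2 and is a part of a chromatin remodelling complex, fell by 1.26 ± 0.26 or 2.39-fold, from 1014 to 458, 400.3 and 399 (adjusted p = 0.0400). The p was 0.0973 without IM8A1-I and 0.0979 without IM8A1-II. Cdc37, a cochaperone of Hsp90 for kinases, was lower on each XEN array but uneven, at 865 in ES and 299, 356 and 553 (-1.13 ± 0.39, adjusted p = 0.124, and 0.0260 without XEN1-3). Cdc34, a ubiquitin-conjugating enzyme, stood at 1098 against 700.3, 901 and 785 (adjusted p = 0.313). Cdc123, Cdc73, Cdk2ap2, Cdk5r1, Cdk5rap3, Poldip2 and Poldip3 changed by -0.44 to 0.03 in log2 and did not pass, and Cdk5r2 was under the limit everywhere.

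**Figure D3:**
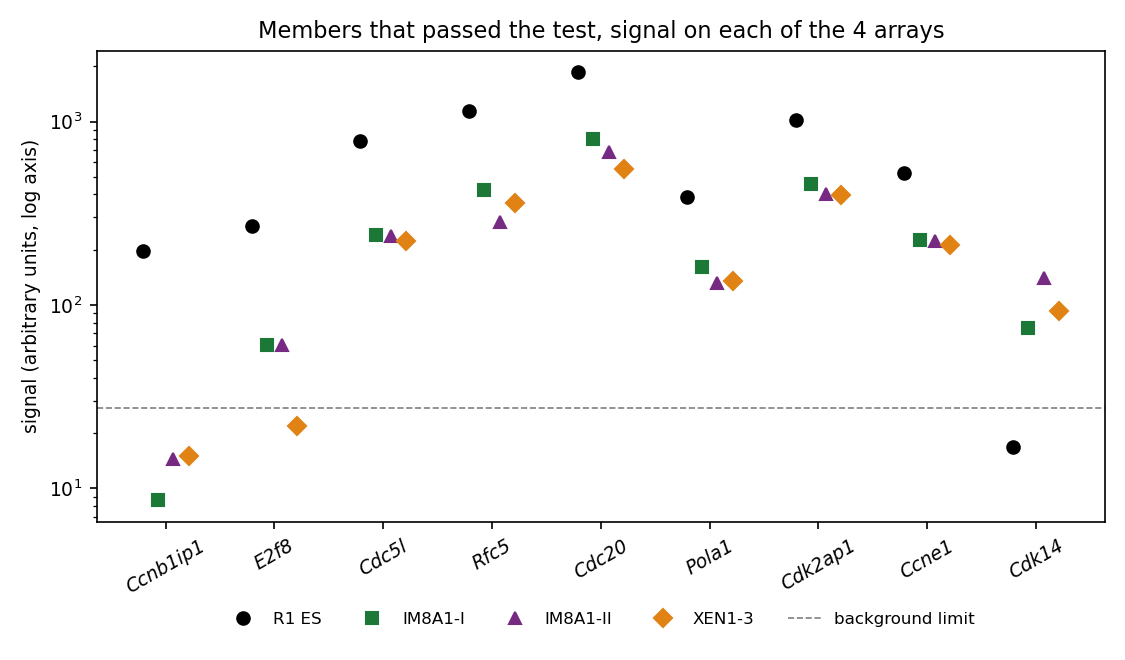
Signal in arbitrary units (log axis) on each of the 4 arrays for the 9 members that passed limma's test, with ES as circles and the 3 XEN cultures as squares, triangles and diamonds; the dashed line is the background limit of 27.3 units. In 8 genes the ES circle lies above every XEN point, and for Cdk14 it lies below them and below the limit.

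A list of 59 further genes of replication and division, which the symbols did not take in, was read from the same fit. It was chosen with earlier results of these data known and rests on the same ES array as the members. Of 54 tested, 7 fell, 0 rose and 47 did not pass, beside backgrounds of 5.05% and 5.58%; 20 lay lower and 0 higher at an unadjusted p under 0.05, against 14.5% and 15.1% of all tested probe sets. All 3 XEN arrays lay below ES for 35 (64.8%), against 34.0% of all tested probe sets, and the median was -0.44. The count that fell was 1 with either IM8A1 culture left out, 14 with XEN1-3 left out and 3 with each XEN line counted once. Of all tested probe sets, 2.11% fell without IM8A1-I, 2.46% without IM8A1-II, 8.27% without XEN1-3 and 3.72% with each line counted once. Stmn1 (stathmin), which destabilises microtubules, fell by 2.90 ± 0.36 on the log2 scale, or 7.45-fold and the most of the list, from 3560.1 units to 426, 637 and 379 (adjusted p = 0.0109).

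Several of the others belong beside the members at the fork. Prim1, the primase subunit that works with Pola1, fell from 250.3 units to 93.7, 115 and 97.4 in XEN (2.32-fold, adjusted p = 0.0489), against 0.130 without IM8A1-I and 0.0941 without IM8A1-II. Tipin, of the fork protection complex, fell 2.93-fold from 410.1 to 132, 150.4 and 118 (adjusted p = 0.0277). Ung, which removes uracil from DNA, fell 3.91-fold from 839 to 155, 208 and 273.5 (adjusted p = 0.0305), but with its 2 probe sets averaged and refitted 1.79-fold (adjusted p = 0.129). The histone chaperone gene Nasp fell 3.79-fold from 477 to 129, 134 and 94.2 (adjusted p = 0.0214).

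The checkpoint kinase gene Chek2 fell 2.87-fold from 479 to 150.3, 175 and 156 (adjusted p = 0.0259), and the spindle gene Nusap1 3.14-fold from 687 to 154, 229.6 and 268 (adjusted p = 0.0467). Averaging the 2 Nusap1 probe sets gave 1.57-fold (adjusted p = 0.225). Of the 7 only Stmn1 was called without either IM8A1 culture, with adjusted p values of 0.0385 without IM8A1-I and 0.0151 without IM8A1-II. Leaving out IM8A1-I gave 0.0824, 0.0668, 0.0592, 0.0824 and 0.0889 for Tipin, Ung, Nasp, Chek2 and Nusap1. Leaving out IM8A1-II gave 0.0625, 0.0737, 0.0504, 0.0644 and 0.0948.

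The XEN cultures were then set against each other, array against array and with no test, to see how the machinery varied with culture and line. Between IM8A1-II and IM8A1-I, the same line on plastic in serum medium and on gelatin in 70% EMFI-CM, 0 of 85 tested members were at least 2-fold apart on the offset scale. Over all tested probe sets 5.98% were, 3.51% higher and 2.47% lower in IM8A1-II. The median log2 difference was -0.02 over the members, and the extremes were Rpa1 at 0.97 and Pold2 at -0.90. The median size of the difference was 0.22 for members and 0.27 for all tested probe sets. A count of 0 from 1 array each cannot show that the cultures divided alike.

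XEN1-3 and IM8A1-I are different lines in the same medium that also differ in strain and passage, so line, strain and passage cannot be told apart. Between them 2 members were at least 2-fold higher and 2 at least 2-fold lower in XEN1-3. Over all tested probe sets the shares were 4.58% and 4.53%, 9.11% together. Ccnb2 was 2.85-fold and Tk1 2.07-fold higher in XEN1-3. Rrm2b and E2f8 were lower and under the limit in XEN1-3, so only a bound holds: both were at 60.1 units in IM8A1-I, at least 2.20-fold above the limit without the offset. On the offset scale a value at the limit would give a ratio of 0.535, which is short of 2-fold. The second E2f8 probe set stood at 57.0 units in IM8A1-I and 58.2 in XEN1-3, so the E2f8 difference depends on the probe set. The fluid message in the run record of XEN1-3 lies beside these differences, and its part in them was not tested. The median log2 difference of the members was 0.07.

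**Figure D4:**
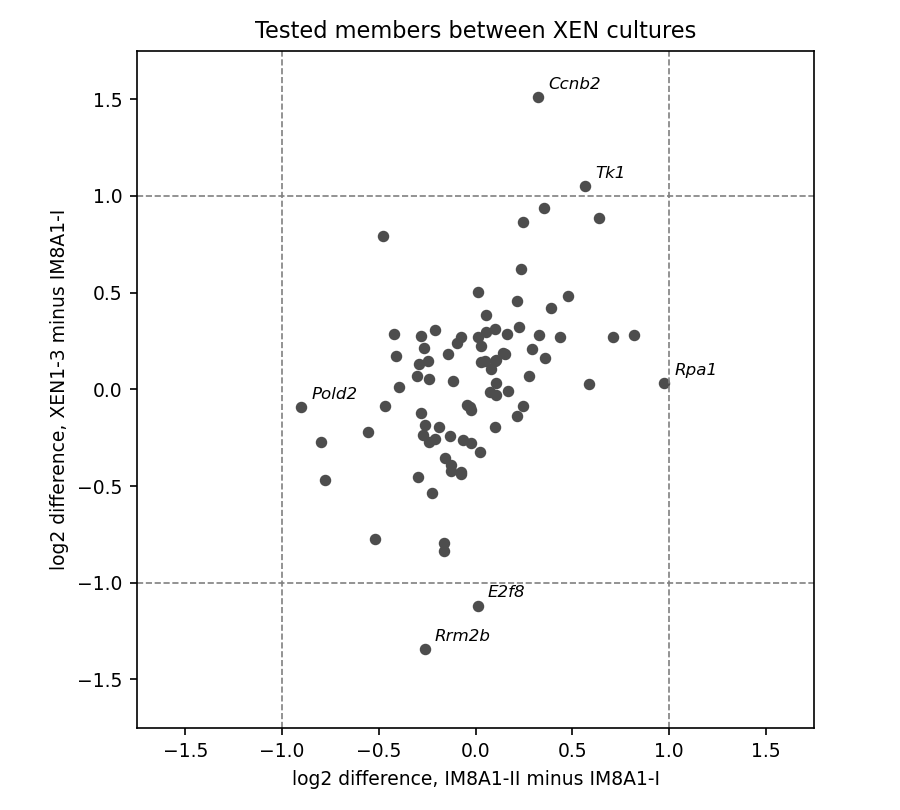
Log2 differences of the 85 tested members between XEN cultures, IM8A1-II minus IM8A1-I (horizontal) and XEN1-3 minus IM8A1-I (vertical), which share the IM8A1-I array; dashed lines mark 2-fold. All points lie within 2-fold on the horizontal axis, and Ccnb2, Tk1, E2f8 and Rrm2b lie beyond it on the vertical axis.

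Probe sets of one gene did not always move alike. Of the 89 genes 29 had several probe sets, and for 22 at least a pair was tested. In 13 of the 22 all tested probe sets had log2 changes of the same sign, and in 9 they differed. In Rfc5, Cdc25c and Pole3 the probe set of opposite sign was above the limit on every array, and in E2f1 on every array but IM8A1-I. In Cdk14, Mcm5, Mki67, Pold1 and Cdc34 it was under the limit on at least 1 array. The direction of these 9 genes depends on the probe set. The number of arrays, 1 for ES and 3 for XEN, limits the precision of every value given here.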

How the data were processed

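Total RNA of 4 cultures was measured on MG_U74Av2 arrays. The deposited table holds, for 12488 probe sets, a linear summary intensity per array. The software behind it is not given in the sources at hand. Because the 2% trimmed mean was 150.1 on every array as deposited, rescaling to a common trimmed mean changed almost nothing. Of the probe sets 66 controls were left out, and log2 was taken after adding 10.5 units, the 25th percentile, so that changes of dim genes are understated. A limit of 27.3 units, the 40th percentile, stood for background and is not a detection call. Probe sets reaching it on at least 1 array, 8582, were tested with limma 3.58.1 in R 4.3.3 (lmFit, eBayes with a variance trend), two-sided, with Benjamini-Hochberg adjustment over all of them and a threshold of 0.05. A group wholly under the limit gives a fold of at least the brighter group's geometric mean over the limit. Symbols came from the platform annotation, and all 89 members were found by gene ID in RefSeq's table. The script was tested on simulated data.

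The members, lists and tests were chosen with earlier results of these data known. The text names members that passed, the 2 of smallest p and 2 of highest signal in each role, the 3 largest changes each way, those 2-fold apart within XEN and a list of well-known genes, and describes the remaining members by their values. The 14 alternatives with a test of their own varied the scaling, offset, filter, variance model, probe set choice, averaging of the IM8A1 arrays and the XEN arrays used.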

Additional observations from a re-analysis of the deposited data

How the results depend on the processing

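The count of members that fell, 8, ranged from 1 to 13 when 1 XEN culture was left out (1 without IM8A1-I, 2 without IM8A1-II, 13 without XEN1-3), and the count that rose, 1, from 0 to 1. Of all tested probe sets 2.11%, 2.46% and 8.27% fell in those settings. With each XEN line counted once 3 of 85 members fell, beside 3.72% of all tested probe sets. With values raised to the limit 5 of 85 fell and 0 rose, beside 6.25% and 2.8% of all tested probe sets. The count that rose was also 0 with no filter, when the 50th percentile was the offset, and when the probe sets of a gene were averaged and refitted, an alternative chosen after seeing the data in which 7 fell and Cdk14 and Rfc5 lost their calls. Under the other alternatives 6 to 8 fell and 0 or 1 rose. All 9 calls were shared under median scaling, quantile normalization and a filter at the 60th percentile. The median change over a gene's probe sets, called if any passes, keeps every call by its construction. Of the 9, Ccnb1ip1 was called in each of the 14 alternatives with a test of its own.

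The 7 falls of the other cell cycle genes became 1 with values raised to the limit, 3 with each line counted once and 1 to 14 with 1 culture left out. The count that rose was 0 throughout. Of all tested probe sets 6.25%, 3.72% and 2.11% to 8.27% fell in these settings. Between IM8A1-II and IM8A1-I, 1 member was 2-fold higher with values raised to the limit. Between XEN1-3 and IM8A1-I the count at least 2-fold higher was 4 with an offset of the 5th percentile or values raised to the limit and 1 with an offset of the 50th, and the count lower was 0 with the latter and 1 with probe sets chosen by mean log2. No called gene changed sign. Among the 92 named genes, 17 that did not pass changed sign under some alternative, by log2 values of at most 0.44 in size. The cause of these changes was not tested. No paired analysis was possible because the groups share only 1 replicate number, given by order. Signal under the limit restricts what can be said of dim genes.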
